A study of Mus musculus with 4 samples.

Results

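Vesicles fuse with their target membranes through SNARE proteins. Vesicle SNAREs such as the VAMP proteins (Vamp genes) pair with syntaxins (Stx genes) and SNAP-23-type proteins (Snap genes) on the target membrane. Proteins of the Sec1/Munc18 kind and other syntaxin-binding proteins (Stxbp genes) hold, guide or block syntaxins, and synaptotagmins (Syt genes), many of which bind calcium, time fusion to a calcium signal. Mast cells use this machinery to release the contents of their secretory granules.

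The members described here are all non-control probes whose gene name on the array starts with Vamp, Stx, Stxbp, Snap or Syt directly followed by a number. They are 48 genes by the names on the array, of 27962 in all, and 98 probes of 41174 gene probes. An accession carried by 78 of the 98 probes was found in RefSeq for the mouse assembly GRCm38.p6. Where the array's name is older, the current symbol is given beside it. The rule takes probes by name alone, so that Snap91, which encodes the clathrin adaptor AP180 and not a SNARE, is among them.

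The study compared mouse mucosal mast cells (MMC), differentiated in vitro and stimulated with interleukin 18 (IL-18), with unstimulated MMC. IL-18 belongs to the IL-1 family of inflammatory cytokines, and its receptor signals through MyD88 and NF-kB. Each of 4 arrays carried the RNA of 1 biological replicate, the IL-18 sample in Cy5 and its own unstimulated control in Cy3. The sources used here give neither the strain nor the age of the animals, and neither a dose nor a length of the IL-18 treatment. Differentiation in culture limits these cells as a model of mast cells in a gut lining, and total RNA of the whole culture was labelled.

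Replicates 1 and 2 shared a slide and replicates 3 and 4 another. Depending on the array, 57.9% to 62.7% of gene spots lay well above background with IL-18, against 49.9% to 54.0% without, and 0 gene spots were saturated. All 10 mast cell markers looked at (Kit, Fcer1a, Ms4a2, Mcpt1, Mcpt2, Cpa3, Tpsb2, Hdc, Gata2 and Il1rl1) were well above background on all 4 arrays in both channels, and so were all 5 macrophage and all 3 basophil markers. Of 13 tested mast cell marker probes, 7 were called higher, among them Fcer1a at 0.87 ± 0.26 and Mcpt1 at 0.73 ± 0.20, and 2 lower, with Tpsb2 at -0.73 ± 0.08. Gata2 had 1 probe called each way, at 0.35 ± 0.16 (n = 3) and -0.27 ± 0.11. Of 4 basophil probes 2 were higher and 0 lower, and of 9 macrophage probes 1 was higher and 1 lower. Over all tested probes of the array, 24.1% were called higher and 24% lower. Of the T cell markers 4 of 5 were well above background on all 4 arrays with IL-18 and 3 without. Of the B cell and of the neutrophil markers, 3 of 5 were so with IL-18 and 1 without. Of the fibroblast markers 2 of 4 were so with and 1 without, and of the eosinophil markers 1 of 3 in each channel. Of 6 neuron markers, 3 were so in the IL-18 channel and 2 in the unstimulated channel, and Map2 and Nefl were above background on no array. The summed raw signal of the neuron markers was 12010 to 15450 in the IL-18 channel and 8411 to 14150 in the unstimulated channel, before any correction for the dyes. Within these sums, Syn1 probe A_52_P482360 had 9771 to 13528 and 6651 to 12497, in the same order of channels. Over lists of other sizes, the sums were 1388000 to 1579000 and 336500 to 400100 for mast cell markers. For basophil markers they were 48740 to 71850 and 18050 to 20100, and for macrophage markers 3534 to 4694 and 2214 to 2600. Of the 4 tested neuron marker probes, 1 passed the test as higher and 2 as lower. The part of any of these markers in the results below was not tested. In whole cultures, fewer cells of a type and less RNA per cell cannot be told apart.

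Tested were probes well above background on at least 3 of the 4 arrays in either the IL-18 or the unstimulated channel, which held for 65 member probes of 36 genes. All values below are log2 ratios of IL-18 over unstimulated cells on an array, after background correction and loess normalization, unless stated otherwise, and a positive value means a higher signal with IL-18. They are given for replicates 1, 2, 3 and 4 in that order, then as the mean with its SD over arrays (n = 4 unless stated). Adjusted p-values come from limma, by the Benjamini-Hochberg method across the 24118 tested probes of the array, and a call is an adjusted p of at most 0.05. No array had the dyes exchanged, and a dye difference specific to a probe and the effect of IL-18 cannot be told apart in any of these ratios.

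Among the members, 11 probes were higher and 20 were lower with IL-18, while 34 did not pass the test. Of the 20, the Syt5 probe was well above background on no array in the unstimulated channel, and 19 were lower without it. In percent, 16.9% of the tested members were called higher and 30.8% lower, against 24.1% and 24% of all tested probes. Taken in either direction, 47.7% of the members were called, against 48.1% of all tested probes, so that the share called among the members is near that of the array. Their median log2 ratio was -0.03, against 0.01 over all tested probes, and their median absolute log2 ratio was 0.12, against 0.14. Every one of the 31 called members had the same sign on each array with a value, and 14 of them had a mean under 0.25 in size. Changes of at least 1.5-fold were found at 0 members among the higher and 5 among the lower calls. That is 7.69% of the tested members, against 4.81% of all tested probes. Over all tested probes, 297 higher and 862 lower calls reached this size, so that large changes were more often falls on the whole array. The 5 member probes belong to Syt10, Stxbp2, Stx5a (with 2 probes) and Vamp2.

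The counts depend on single arrays. Without replicate 2 there were 4 higher and 12 lower calls among the members, without replicate 1 there were 8 and 13, and without replicate 3 there were 6 and 15. With each array's ratios centred on their median in place of loess, the median of all tested probes moved by 0.37, and 41 members were then higher and 10 lower. Taken alone, the slide of replicates 1 and 2 gave 8 higher and 18 lower members, and the slide of replicates 3 and 4 gave 4 and 10. The slides gave -1.87 and -1.74 for Syt10 and -1.08 and -1.26 for Stxbp2, in the same order.

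**Figure D1:**
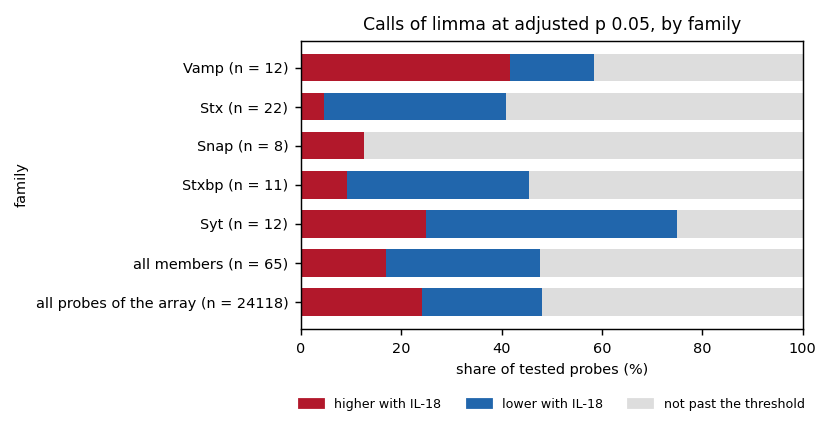
Share of tested probes (%, x axis) called higher with IL-18, lower with IL-18 or not past the threshold, by family of members, over all 65 tested members and over all 24118 tested probes (y axis). Synaptotagmins have the highest share called (75%) and Snap probes the lowest (12.5%). Ratios are those after loess. With median centring the members split into 41 higher and 10 lower.

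The families differed in how many of their probes could be measured. All 12 Vamp probes were tested, of which 5 were higher and 2 lower. Of 25 Stx probes 22 were tested, with 1 higher and 8 lower, and of 11 Snap probes 8 were tested, with 1 higher and 0 lower. Of 16 Stxbp probes 11 were tested, with 1 higher and 4 lower. Only 12 of 34 synaptotagmin probes were tested, with 3 higher and 6 lower, and 19 of the other Syt probes were above background on no array in either channel. In either direction, 58.3% of the tested Vamp, 40.9% of the Stx and 12.5% of the Snap probes were called. For Stxbp it was 45.5% and for Syt 75%, against 48.1% of all tested probes. The differences between families were not tested.

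**Figure D2:**
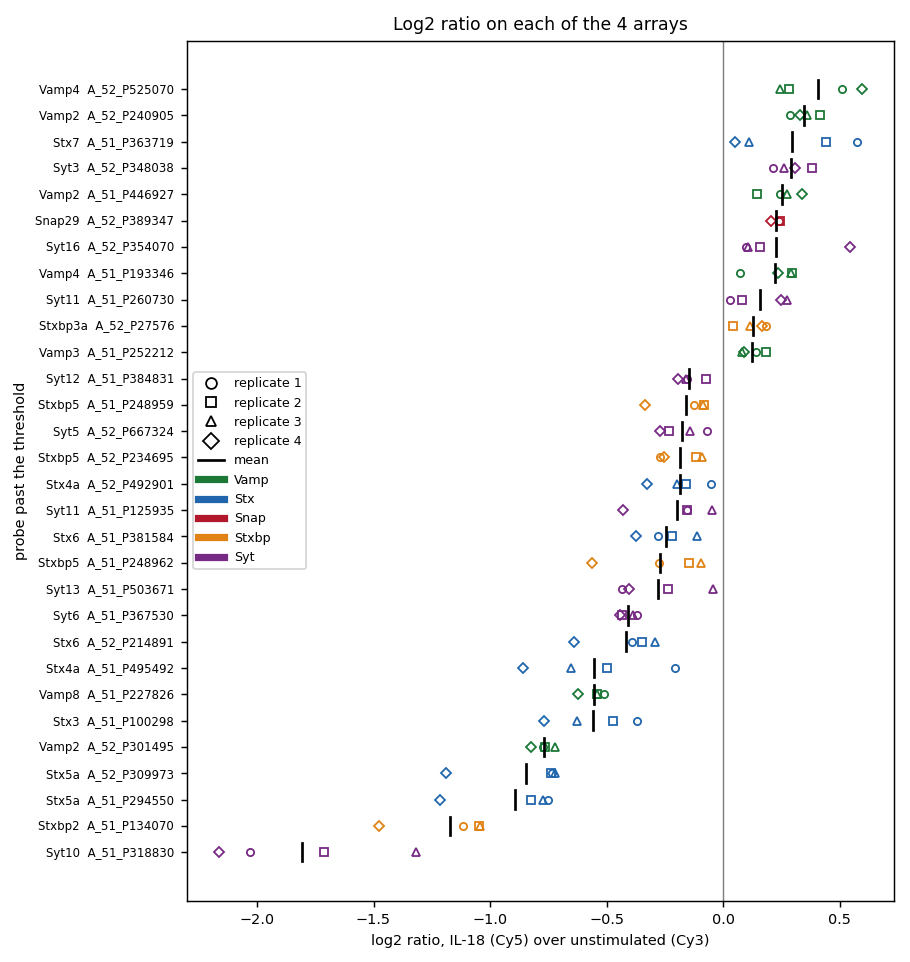
Log2 ratio of IL-18 (Cy5) over unstimulated (Cy3) for 30 of the 31 called member probes (y axis, gene and probe) on each of the 4 arrays (symbols), with the mean as a black bar and the family as colour. Every probe shown lies on 1 side of 0 on all arrays with a value. Syt10, Stxbp2 and Stx5a lie furthest to the left, at means of -1.81, -1.17, -0.89 and -0.85. After median centring 9 of them lie on the other side of 0, among them probes of Vamp8, Stx4a, Stx6, Syt6, Syt12 and Stxbp5.

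To show the upstream sequence of members that moved at several probes, genes with at least 2 called probes, all in 1 direction, were taken. These were 5 genes, Vamp4 (higher) and Stx4a, Stx5a, Stx6 and Stxbp5 (lower). The 150 bases before the start given by RefSeq lie inside the annotated gene for 3 of them, and the other 2 are printed here 5′ to 3′ on the plus strand of GRCm38.p6, with motif matches in capitals. The Vamp4 window is chr1:162570365-162570514 and the Stx5a window is chr19:8741274-8741423. RefSeq gives 2 starts for each gene, of which the first listed was used.
Vamp4: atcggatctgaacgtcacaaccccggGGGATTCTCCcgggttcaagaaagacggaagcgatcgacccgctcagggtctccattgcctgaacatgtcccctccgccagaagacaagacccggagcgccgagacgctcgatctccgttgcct
Stx5a: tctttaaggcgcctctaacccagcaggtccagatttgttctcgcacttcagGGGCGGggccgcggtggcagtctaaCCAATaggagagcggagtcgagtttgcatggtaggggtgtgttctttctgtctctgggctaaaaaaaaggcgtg

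The motifs searched, on both strands, were the kappaB consensus, the AP-1 site (TGANTCA), the CRE (TGACGTCA), the E-box (CACGTG), the GATA factor site (AGATAA), the box CCAAT and the GC box (GGGCGG). The capitals in Vamp4 are a match to the kappaB consensus at positions -124 to -115 relative to the start, and 4.6% of 32851 promoter windows of the same length hold one. The capitals in Stx5a are a GC box at -99 to -94, held by 28.6% of windows, and a CCAAT box at -74 to -70, held by 24.5%. No matches overlapped in these windows, and a match describes the letters only. By symbol, 36 of the 48 member genes were found in this table.

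The vesicle SNAREs split by probe. Vamp2, the synaptobrevin of synaptic vesicles, is read by 3 probes, all annotated to the same RefSeq transcript. Probe A_52_P301495 gave -0.77, -0.76, -0.72 and -0.82, which was -0.77 ± 0.04 (adjusted p = 8.36e-05). Probe A_52_P240905 gave 0.29, 0.41, 0.36 and 0.33, which was 0.35 ± 0.05 (adjusted p = 0.000888). Probe A_51_P446927 gave 0.25, 0.15, 0.27 and 0.34, which was 0.25 ± 0.08 (adjusted p = 0.00432). One probe was thus lower and the other two higher with IL-18 on every array, and all 3 calls were kept under all 18 alternative settings. No direction can be given for Vamp2 as a gene.

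Vamp4, a SNARE of the trans-Golgi network and endosomes, was higher at 2 of 3 probes. Probe A_52_P525070 gave 0.51, 0.28, 0.24 and 0.60, with a mean of 0.41 ± 0.17 (adjusted p = 0.00298), the highest mean of any tested member. Probe A_51_P193346 gave 0.07, 0.30, 0.29 and 0.23, with a mean of 0.22 ± 0.10 (adjusted p = 0.0101). That second call was lost without replicate 2, at 0.20, and without replicate 3, also at 0.20. Probe A_52_P112926 had a mean of 0.12 ± 0.09 (adjusted p = 0.073) and passed the test without replicate 1, at 0.16. The values of the 3 probes were above 0 on all arrays, except for that of A_52_P112926 on replicate 1.

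Vamp8, the endobrevin of late endosomes and of mast cell granules, was lower at 1 of 2 probes. A_51_P227826 gave -0.51, -0.54, -0.54 and -0.62, which is -0.55 ± 0.05 (adjusted p = 0.000213), a 1.47-fold lower signal with IL-18. Under median centring that probe stood at 0.24, on the other side of 0, and at -0.14 relative to the median of all tested probes. A_52_P279152, annotated to the same transcript, gave -0.04, -0.10, -0.11 and -0.19 and did not pass (mean -0.11 ± 0.06, adjusted p = 0.0726). Both probes lay below 0 on all 4 arrays.

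Vamp3, the cellubrevin of recycling endosomes, had 1 called probe. It gave 0.14, 0.19, 0.08 and 0.09, with a mean of 0.12 ± 0.05 (adjusted p = 0.0404), and the call was lost without replicate 1, 2 or 3, at 0.12, 0.10 and 0.14. The other Vamp3 probe averaged -0.03 ± 0.17 (adjusted p = 0.764). Vamp5, known from muscle, averaged 0.04 ± 0.13, and Vamp1 averaged -0.04 ± 0.12, and neither passed. No probe (0) on the array carries the name Vamp7.

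Among syntaxins of the plasma membrane, Stx4a (Stx4) had 2 probes well above background on all arrays in both channels. Stx4a probe A_51_P495492 gave -0.21, -0.50, -0.65 and -0.86, with a mean of -0.55 ± 0.27 (adjusted p = 0.00378). Probe A_52_P492901 gave -0.05, -0.16, -0.20 and -0.33, with a mean of -0.18 ± 0.11 (adjusted p = 0.0245). Its call was lost without replicate 2, at -0.19, and without replicate 3, at -0.18. Both were lower with IL-18 on all 4 arrays after loess, but stood above 0 after median centring, at 0.15 and 0.74. Set against the median of all tested probes, these centred values were -0.23 and 0.35, so that the direction of A_52_P492901 depended on the dye normalization.

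Stx3, a plasma membrane and granule syntaxin, had 4 tested probes. A_51_P100298 gave -0.37, -0.47, -0.62 and -0.77, a mean of -0.56 ± 0.17 (adjusted p = 0.000949) and a 1.47-fold lower signal with IL-18. Under median centring this probe stood at -0.07, which is -0.46 relative to the median of all tested probes. Its call was lost in 1 of the 18 alternatives. The other 3 tested probes averaged 0.04, -0.11 and -0.03 and did not pass, and they carry other accessions than the called probe. A_52_P257444 was well above background on 3 arrays with IL-18 and on 1 without, and A_52_P522230 was well above background on 4 arrays in the IL-18 channel and on 0 in the unstimulated channel. The mean log2 level of A_52_P522230 with IL-18, 6.51, did not exceed its own level in the unstimulated channel, 6.54. No fold is given for it.

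Stx1a, the neuronal plasma membrane syntaxin, was above background on 0 arrays in either channel. Stx11, a syntaxin of cytotoxic lymphocytes, gave 0.09, 0.10, 0.17 and 0.03 and did not pass (mean 0.10 ± 0.06, adjusted p = 0.095), although it did without replicate 4, at 0.12.

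The clearest syntaxin of the early secretory pathway was Stx5a (Stx5), which acts in traffic between the endoplasmic reticulum and the Golgi and whose upstream sequence is printed above. Its probe A_51_P294550 gave -0.75, -0.83, -0.77 and -1.21, a mean of -0.89 ± 0.22 (adjusted p = 0.000362). Its probe A_52_P309973 gave -0.73, -0.74, -0.72 and -1.19, a mean of -0.85 ± 0.23 (adjusted p = 0.000479). The signals were 1.85-fold and 1.80-fold lower with IL-18, replicate 4 lay furthest from 0 at both probes, and both calls were kept under all 18 alternatives.

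Stx6, of the trans-Golgi network and early endosomes, was lower at both probes. A_52_P214891 gave -0.39, -0.35, -0.29 and -0.64, with a mean of -0.42 ± 0.15 (adjusted p = 0.00205), but stood at 0.30 under median centring, which is -0.08 relative to the median of all tested probes. A_51_P381584 gave -0.28, -0.22, -0.11 and -0.37, with a mean of -0.25 ± 0.11 (adjusted p = 0.00787). It stood at -0.06 under median centring, -0.45 relative to that median, and its call was lost in 3 of the 18 alternatives. No leave-one-out of an array ended either call. Stx16, also of the trans-Golgi network, averaged -0.10 ± 0.16, and Stx18, of the endoplasmic reticulum, averaged -0.01 ± 0.11, and neither passed.

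Stx7, a syntaxin of late endosomes and lysosomes, was the only Stx probe called higher. It gave 0.57, 0.44, 0.11 and 0.05, with a mean of 0.29 ± 0.25 (adjusted p = 0.0322). The 2 arrays of the first slide lay well above those of the second, with means of 0.51 and 0.08 on the slides, and the call was lost without replicate 1, at 0.20, and without replicate 2, at 0.25. Stx8, which pairs with Stx7 in late endosomes, had 4 tested probes with means from -0.05 to 0.10, none called. Stx12, of recycling endosomes, averaged -0.05 ± 0.03, and the 2 probes of Stx17, the autophagosome syntaxin, averaged 0.09 and 0.01, and none of these passed.

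Snap23, the SNAP-25 relative used for granule exocytosis in mast cells, showed no difference past the test at any of 3 probes. A_52_P155778 gave -0.04, 0.01, -0.04 and -0.00222, a mean of -0.02 ± 0.03 (adjusted p = 0.737). The other two averaged -0.01 ± 0.25 and 0.02 ± 0.23, with values on both sides of 0. Snap29, which acts with Stx17 in autophagosome fusion, was higher at 1 of 3 probes, A_52_P389347, with 0.24, 0.24 and 0.20 on replicates 1, 2 and 4 and no value on replicate 3 (mean 0.23 ± 0.02, n = 3, adjusted p = 0.00958 in limma). That call was lost without replicate 2, at 0.22, and the other 2 probes averaged 0.09 and 0.08 without passing. Snap25, the neuronal form, had 2 tested probes near background, at 0.02 and -0.03, neither called.

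Stxbp2 (Munc18-2), the partner of Stx3 and Stx11 needed for degranulation, had the strongest fall outside the synaptotagmins. Its 1 probe gave -1.12, -1.05, -1.04 and -1.47. The mean was -1.17 ± 0.21 (adjusted p = 0.000156), a 2.25-fold lower signal with IL-18. The normalized log2 level was 8.91 ± 0.07 in the IL-18 channel and 10.08 ± 0.27 in the unstimulated channel. All 4 arrays lay far below 0 with replicate 4 the lowest, and the call was kept under all 18 alternatives, with values between -1.26 and -0.63.

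Stxbp3a (Stxbp3, Munc18-3), the partner of Stx4, had 1 probe at 0.19, 0.04, 0.12 and 0.17, a mean of 0.13 ± 0.06 (adjusted p = 0.0436), and another at -0.04 ± 0.03 (adjusted p = 0.422). The call at the first was lost when any 1 array was left out, with means between 0.11 and 0.16, and it stood at -0.09 relative to the median of all tested probes under median centring.

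Stxbp5 (tomosyn), which binds syntaxins in place of a vesicle SNARE and inhibits fusion, was lower at 3 of 4 tested probes. A_51_P248962 gave -0.28, -0.15, -0.09 and -0.56, a mean of -0.27 ± 0.21 (adjusted p = 0.0257). A_52_P234695 averaged -0.18 ± 0.09 (adjusted p = 0.0181) and A_51_P248959 averaged -0.16 ± 0.12 (adjusted p = 0.0462). All 3 stood above 0 under median centring, at 0.45, 0.37 and 0.53. The first call was lost without replicate 1, at -0.27, the second without replicate 1 or 2, at -0.15 and -0.20, and the third when any 1 array was left out, with means between -0.18 and -0.10. The fourth probe, A_52_P294605, averaged 0.13 ± 0.12 (adjusted p = 0.082), with the opposite sign. Stxbp4, which binds Stx4, had 3 tested probes near background in the unstimulated channel, between -0.04 and 0.07, none called, and Stxbp6 was above background on 0 arrays.

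Syt10, a calcium sensor that in mouse olfactory bulb neurons controls the release of IGF-1, was the member furthest from 0. Probe A_51_P318830 gave -2.03, -1.71, -1.32 and -2.16. Its mean was -1.81 ± 0.38 (adjusted p = 0.000203), a 3.50-fold lower signal with IL-18. The normalized log2 level was 10.93 ± 0.39 in the IL-18 channel and 12.74 ± 0.63 in the unstimulated channel. Raw signals before any correction were 3006, 2078, 2562 and 3863 with IL-18, against 5618, 3671, 3147 and 7565 without, so this probe was dimmer with IL-18 on each array even before the dyes were balanced. A second probe annotated to the same transcript, A_52_P77155, was above background on 0 arrays in either channel and was not tested.

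Syt6 gave -0.37, -0.43, -0.39 and -0.44, a mean of -0.41 ± 0.03 (adjusted p = 0.000437), with little spread between arrays. Under median centring it stood at 0.01, which is -0.37 relative to the median of all tested probes. Syt3, a calcium-binding synaptotagmin described on endosomes of rat mast cells, gave 0.21, 0.38, 0.26 and 0.31. Its mean was 0.29 ± 0.07 (adjusted p = 0.00221), and the call was kept under all 18 alternatives, with values between 0.24 and 0.74. Under median centring the Syt3 probe stood at 0.41, but at only 0.03 relative to the median of all tested probes. The probe was dim, at normalized log2 levels of 7.06 with IL-18 and 6.77 without.

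Another 3 synaptotagmin genes passed with smaller or less even ratios. Syt13 gave -0.44, -0.24, -0.04 and -0.40, a mean of -0.28 ± 0.18 (adjusted p = 0.015). The call was lost without replicate 1, at -0.23, or 2, at -0.29. The Syt13 probe was dim, at normalized log2 levels of 6.46 with IL-18 and 6.74 without. By the scanner software's own ratio it stood at -0.94. Syt12 averaged -0.14 ± 0.05 (adjusted p = 0.0237), lost without replicate 1, 2 or 3, at -0.14, -0.17 and -0.14, and stood at 0.26 under median centring. Syt16 gave 0.10, 0.16, 0.10 and 0.55, with replicate 4 far above the others (mean 0.23 ± 0.21, adjusted p = 0.0499). Its call was lost without replicate 1, 2 or 3, at 0.27, 0.25 and 0.27. Syt5 is counted among the lower calls (adjusted p = 0.0196), but its probe was well above background on 3 arrays with IL-18 and on 0 without. Its unstimulated level is therefore only bounded, and no direction or fold is given for it.

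Syt11, a synaptotagmin that does not act as a calcium sensor, had probes called in opposite directions. A_51_P260730 gave 0.03, 0.08, 0.27 and 0.25, a mean of 0.16 ± 0.12 (adjusted p = 0.0479). A_51_P125935 gave -0.15, -0.15, -0.05 and -0.43, a mean of -0.20 ± 0.16 (adjusted p = 0.0408). It was dim, at normalized log2 levels of 6.59 with IL-18 and 6.79 without, and stood at -0.58 by the scanner software's own ratio. The first was lost without replicate 2, 3 or 4, at 0.18, 0.12 and 0.13, and the second without replicate 1, at -0.21, or 2, also at -0.21. The remaining tested probe, A_52_P354974, was above background on 4 arrays with IL-18 and on 0 without and did not pass (adjusted p = 0.663). Its unstimulated level is only bounded, and no fold is given.

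The synaptotagmins best known from fast neurotransmitter release were mostly below detection. None of the 5 Syt1 probes was tested, although A_52_P679799 was above background on 1 array in each channel, and Syt2, described as a regulator of lysosome exocytosis in rat mast cells, was above background on 0 arrays. Syt9 was bright enough to test and gave 0.01, -0.07, -0.14 and -0.08, without passing (mean -0.07 ± 0.06, adjusted p = 0.205). Syt7, the sensor of lysosome exocytosis, had 1 tested probe near background, well above it on 4 arrays with IL-18 and on 1 without. It averaged 0.01 ± 0.03 and did not pass (adjusted p = 0.817), and a difference may not have been detectable at this signal.

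In all, 12 of the 48 member genes had no tested probe, and 7 of these are synaptotagmins. Of the 33 untested probes 30 were above background on no array in either channel, and the means of the 33 lay between -0.17 and 0.21. The 3 with any array above background were the Syt1 probe named above, a Syt15 probe (1 array in each channel) and a Syt11 probe (1 array with IL-18 and 0 without). More arrays were above background in the IL-18 than in the unstimulated channel at 13 member probes, and the reverse held at 0. Over all gene probes the same counts were 6641 and 72, so this lean towards the Cy5 channel is one of the whole array.

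**Figure D3:**
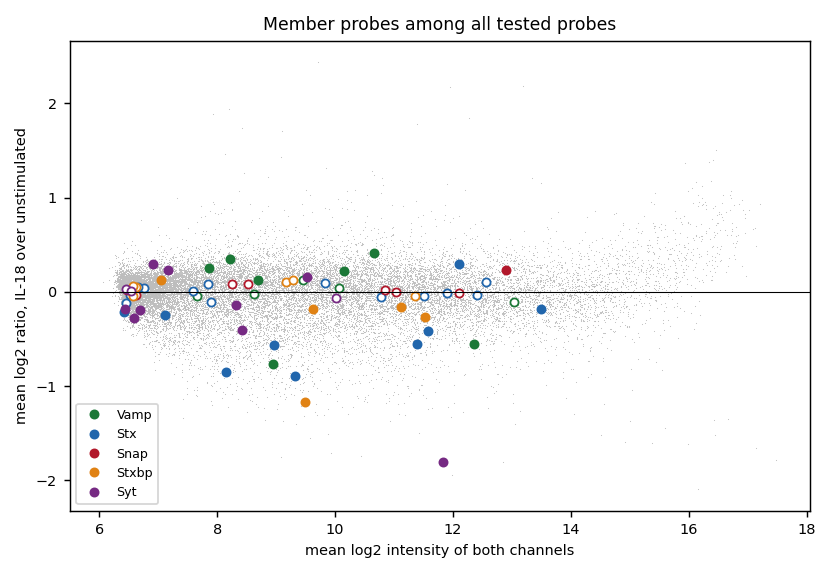
Mean log2 ratio of IL-18 over unstimulated (y axis) against the mean log2 intensity of both channels (x axis) for all 24118 tested probes (grey) and the 65 tested members (coloured by family, filled where called). Members reach up to 13.5 on the x axis, below the brightest probes of the array, and the Syt10 probe at -1.81 is the lowest member. Ratios are those after loess, and 9 filled points change side of 0 under median centring.

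Probes of the same gene often disagreed. Of the 36 genes with a tested probe, 10 were lower at every tested probe, counting Syt5, for which no direction is given above. Another 3 were higher at every tested probe, and 2 were called in both directions (Vamp2 and Syt11). Only some probes were called at 7 genes, and none at 14. For a gene with 1 tested probe, these classes show no agreement between probes. Among the 17 genes with more than 1 tested probe, 3 were lower at all of them (Stx4a, Stx5a and Stx6), 0 were higher at all of them and 5 had no called probe. When only the brightest tested probe stood for a gene, 7 of 36 genes were higher and 13 lower, which is 55.6% called in either direction. Over 16527 genes of the array taken the same way, 26.2% were higher, 20.7% lower and 46.9% either.

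**Figure D4:**
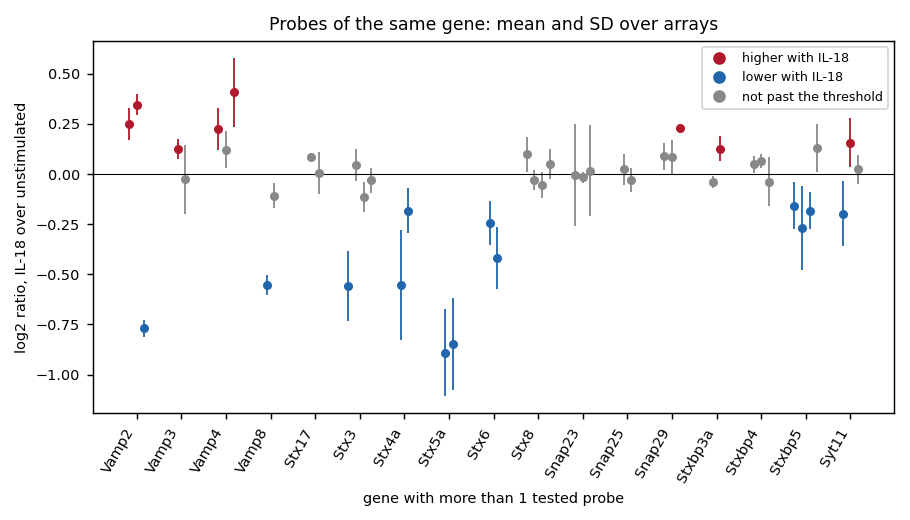
Mean log2 ratio of IL-18 over unstimulated with its SD over arrays (y axis) for every tested probe of the 17 member genes with more than 1 tested probe (x axis), coloured by call. The Vamp2 probes lie at 0.25, 0.35 and -0.77, while the Stx5a probes lie together at -0.89 and -0.85. Among the probes called lower here, the Stx4a probes, 1 Stx6 probe, 1 Vamp8 probe and 3 Stxbp5 probes lie above 0 under median centring.

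Replicates resembled each other over the members. Over the 65 tested member probes, several of which share a gene, the ratios of any 2 arrays correlated with Pearson's r between 0.849 and 0.944. The points share the loess fit and the dye orientation of their arrays. Over all tested probes of the array, r lay between 0.743 and 0.906. The median absolute ratio of the members was 0.111, 0.098 and 0.11 on replicates 1, 2 and 3 and 0.205 on replicate 4. Replicate 4 thus had the largest median absolute ratio. Its ratios ran from -2.16 to 0.60, against -2.03 to 0.57 on replicate 1.

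**Figure D5:**
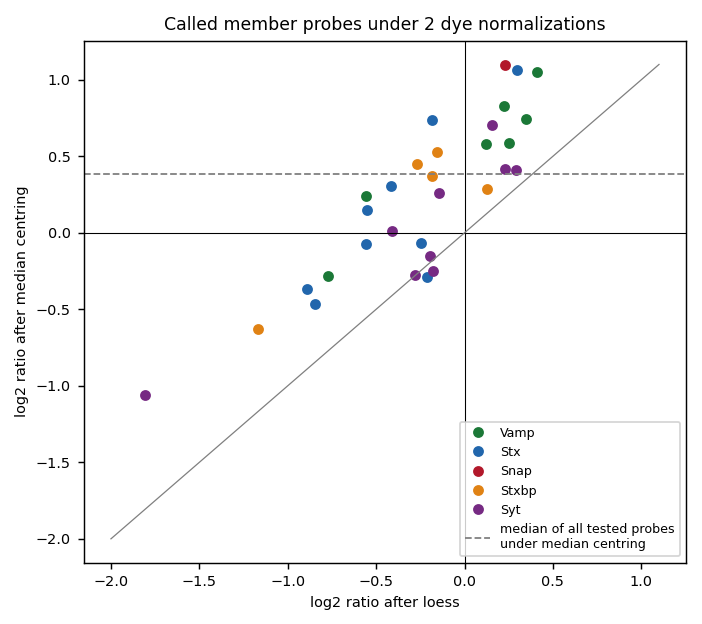
Log2 ratio of IL-18 over unstimulated after median centring (y axis) against that after loess (x axis) for the 31 called member probes, coloured by family. The solid line marks equal values and the dashed line the median of all tested probes under median centring, 0.38. Syt10, Stxbp2, both Stx5a probes and 1 Vamp2 probe are among those below 0 on both axes. After median centring, 9 probes to the left of 0 lie above 0.

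The genes that act with these families were read from a list of 64 other exocytosis genes, of which 52 had a tested probe. Of their 97 tested probes, 25 were higher, 20 were lower and 52 did not pass, 46.4% called against 48.1% of all tested probes, with a median of -0.01. Without replicate 2 there were 9 higher and 13 lower calls, without replicate 3 there were 16 higher, and with median centring 67 were higher and 6 lower. The largest fall was at Ykt6, a vesicle SNARE of the Golgi and endosomes, whose probe A_52_P583155 gave -0.80, -0.98, -1.06 and -1.55 (mean -1.10 ± 0.32, adjusted p = 0.000506), while its other 2 probes averaged -0.03 and -0.09 and did not pass. Nsf, the ATPase that takes used SNARE complexes apart, was lower at both probes, at -0.71 ± 0.16 (adjusted p = 0.000362) and -0.46 ± 0.13 (adjusted p = 0.000965).

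Unc13d (Munc13-4), which primes granules for fusion in immune cells, gave -0.59, -0.60, -0.47 and -0.87 at its 1 probe, a mean of -0.63 ± 0.17 (adjusted p = 0.000562). The remaining falls named by size were those of the syntaxin-binding taxilin Txlna at -0.60 ± 0.14, the exocyst subunit Exoc3 at -0.54 ± 0.26 and the Rab27 effector Sytl3 at -0.52 ± 0.15. A further probe of Txlna and of Exoc3 averaged -0.10 and -0.07 and did not pass. The largest rises were smaller, led by the Golgi SNARE Gosr1 at 0.40 ± 0.06 (adjusted p = 0.000541), whose other probe averaged 0.06 and did not pass. Bet1, an endoplasmic reticulum to Golgi SNARE, followed at 0.35 ± 0.07 and 0.19 ± 0.13 at its 2 probes. The Sec1 family gene Scfd2 stood at 0.33 ± 0.11 at 1 probe and at -0.01 ± 0.07, without passing, at the other. The Golgi SNARE Bet1l stood at 0.33 ± 0.14 and 0.18 ± 0.04 at 2 called probes and at -0.12 ± 0.12, without passing, at another. The exocyst subunit Exoc5 stood at 0.26 ± 0.06 and 0.15 ± 0.10 at its 2 tested probes. The complexin Cplx3 was above background on 4 arrays with IL-18 and on 0 without at probe A_51_P470851. Its signal there was 1.21-fold higher with IL-18 (adjusted p = 0.0107). That fold is the plain ratio to the probe's own unstimulated level, which was not well above background. The other Cplx3 probe averaged 0.16 ± 0.11 (adjusted p = 0.0414). In all, 3 of the 25 higher calls in this list, 1 probe each of Vti1a, Cplx3 and Exoc2, were above background on no array in the unstimulated channel, and 22 were higher without them.

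By subgroup, SNARE recycling factors and other SNAREs had 13 higher and 6 lower of 40 tested probes. The other Sec1/Munc18 genes had 2 and 2 of 9, the priming and calcium regulators 5 and 5 of 20, and the exocyst 5 and 3 of 15. In this order, 47.5%, 44.4%, 50% and 53.3% were called in either direction, against 48.1% of all tested probes. Synaptotagmin-like, Rab27 and Rab3 genes had 0 higher and 4 lower of 13 tested probes, 30.8% called against the same 48.1%. The 4 were Sytl3, Sytl1 at -0.33 ± 0.08, Rab27b at -0.33 ± 0.18 and Rab3d at -0.30 ± 0.22. Rab27b and Rab3d each had another tested probe, at -0.09 ± 0.03 (adjusted p = 0.104) and -0.16 ± 0.18 (adjusted p = 0.0948), which did not pass.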

How the data were processed

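The intensity values are the mean spot brightness and median local background of each channel, deposited uncorrected by the authors from Agilent Feature Extraction 9.1, per the file headers and the submitters' processing notes. The log10 ratio of Cy5 over Cy3 in the deposited files had been background-subtracted and dye-normalized by that software per the file headers, and the deposited series table holds the same log10 ratios to within 0.00496, with column medians of 0, in the same direction. Both served as alternatives, and flags were used as deposited.

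Background was corrected with normexp (offset 50), followed by loess within arrays with control and outlier spots given no weight. On replicate 1, 7 spots, and on replicate 4, 1 spot, lay more than 50 below their local background. With them normexp put the Cy3 background mean of replicate 1 at -381, against 29.4 without and 26.3 to 32 on the other arrays. They were left out, a step chosen after seeing the data from that estimate and not from calls. Spots of a probe were averaged, and limma 3.58.1 in R 4.3.3 (lmFit with an intercept, eBayes, two-sided) tested the mean ratio, which is the paired difference, against 0. With 4 arrays an exact sign-flip test reaches 0.125 at the lowest and was not used.

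Members, lists and the named genes (a fixed core list, every member with a called probe, and the 6 largest rises and falls among the other exocytosis genes) were chosen with earlier results of these data known. The steps were tested on simulated data. Levels per channel are after loess and Aquantile. A bound compares the brighter channel with the higher of the dim probe and the lowest signal among probes well above background. Promoters are from RefSeq (GRCm38.p6). The array files name no genome build. Probe and protein sequences were not used here. The number of arrays limits the precision. A few members that this rule names are counted but not reported here as single genes.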

Additional observations from a re-analysis of the deposited data

Results flagged for a closer look

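In 6 of 64 tested member probes with a value on all 4 arrays, 1 array lay further from the other three than Dixon's 95% criterion for 4 samples allows, by the share of the whole range that its gap takes. Chance gives about 1 in 20. In 5 of the 6 it was replicate 4. These were Stxbp2 at -1.47, Stx5a at -1.21 and -1.19 at its 2 probes, Stxbp5 probe A_51_P248959 at -0.334 and Syt16 at 0.546. The sixth was Stxbp3a probe A_51_P304469, at -0.0847 on replicate 3. Without replicate 4 the Stxbp2 mean was -1.07 and the Stx5a means were -0.78 and -0.73, all still called, while the Stxbp5 mean was -0.099 and was not called. Syt16 without replicate 4 averaged 0.12 and was still called (adjusted p = 0.0353 in limma).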

How the results depend on the processing

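Of the 31 called member probes, 9 kept direction and call under all 18 alternatives: the 3 of Vamp2, both of Stx5a, 1 of Vamp4 (A_52_P525070), Syt10, Syt3 and Stxbp2. Median centring moved the median of all tested probes by 0.37, put 91.8% of calls among the higher, against 50.1% after loess, and gave 16644 higher and 1480 lower calls over the array, 41 and 10 among the members and 67 and 6 among the other exocytosis probes. The probes that turned direction, all under this setting, were Stx4a (0.74 and 0.15), Vamp8 (0.24), Stxbp5 (0.45, 0.37 and 0.53), Syt6 (0.0098), Stx6 (0.30) and Syt12 (0.26). Relative to the shifted median, 4 called probes had the opposite sign. The ratio follows brightness differently in the 2 settings, and which of them is nearer to the cells was not tested.

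With normexp fitted on all spots, an alternative added after seeing the data, 11 members and 12 other exocytosis probes were lower and 13 of the 31 calls were lost. The slide of replicates 3 and 4 alone, which leaves 2 arrays, gave 2343 higher and 3429 lower calls over the array, 4 and 10 among the members and 6 higher among the others. Leaving out 1 array gave 3471 to 6185 higher and 4102 to 6007 lower calls over the array, 4 to 10 and 12 to 19 among the members, and 9 to 30 and 13 to 20 among the others. In these leave-outs 16 of the 31 calls were lost at least once and 15 never. By brightest tested probe, 7 genes were higher and 13 lower among 36 members, and 10 and 10 among 52 others. Fewer probes were counted there. The software's ratio kept 24 calls and lost 7, and 31 were kept with slide as a random block (correlation -0.0453), with scale normalization, with trended robust eBayes and without spots of unusual background. The cause of the other changes was not tested. Dim probes are limited by background: 30 of 98 members were never above it.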
